A study of Mus musculus with 6 samples.

Results

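The Kruppel-like factors are transcription factors that bind GC-rich and CACCC sequences in DNA through zinc fingers near the end of the protein. The members described here were the 9 gene symbols Klf2, Klf3, Klf4, Klf6, Klf7, Klf9, Klf10, Klf11 and Klf13, of 24421 symbols in the files. They were taken by symbol, with earlier results of these data known. All 9 passed the filter on low values that 11862 genes passed. Endothelial cells sorted from GL26l gliomas, 3 weeks after the glioma cells were injected into the brain of C57BL/6 mice, were compared with endothelial cells sorted from normal brain of C57BL/6 mice. The comparison asks how tumor vessels differ from brain vessels in gene expression. Each group held 3 RNA-sequencing libraries from RNA sets described as independent; whether they came from separate animals is not stated, so a p-value here reflects sample spread that may be technical. The labels name neither the surface marker of the sort nor the age or sex of the mice, and the gliomas all came from the injected GL26l cells.

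In endothelium, KLF2 and KLF4 are known as factors induced by laminar flow, through the kinases MEK5 and ERK5 and the MEF2 factors, that keep vessels quiescent and favor anticoagulant and anti-inflammatory genes. KLF6 is an activator induced by vascular injury, and KLF3 is a repressor that recruits the corepressor CtBP. KLF9, KLF10, KLF11 and KLF13 belong to a subgroup that can recruit the corepressor SIN3A; KLF10 and KLF11 were described as early genes of TGF-beta signalling, and KLF9 as a gene induced by glucocorticoid and thyroid hormone.

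RefSeq entries (build GRCm38.p6) for the DNA before an annotated start site were found for 8 of the 9 members, all but Klf10. The window of Klf7 belongs to a start site 956 bases inside the gene, and the other 7 windows end at the outer start of the gene. The 250 bases before the start of Klf2 and Klf4 are shown because both genes are known targets of the same flow pathway. Capitals mark a match to the MEF2 consensus, searched on both strands.
Klf2 (chr8:72318812-72319061, plus strand): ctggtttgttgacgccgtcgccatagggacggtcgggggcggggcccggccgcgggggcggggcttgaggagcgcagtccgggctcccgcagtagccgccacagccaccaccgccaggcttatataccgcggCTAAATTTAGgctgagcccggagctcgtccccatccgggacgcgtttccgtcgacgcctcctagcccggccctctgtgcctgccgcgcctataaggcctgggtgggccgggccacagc
Klf4 (chr4:55532476-55532725, minus strand): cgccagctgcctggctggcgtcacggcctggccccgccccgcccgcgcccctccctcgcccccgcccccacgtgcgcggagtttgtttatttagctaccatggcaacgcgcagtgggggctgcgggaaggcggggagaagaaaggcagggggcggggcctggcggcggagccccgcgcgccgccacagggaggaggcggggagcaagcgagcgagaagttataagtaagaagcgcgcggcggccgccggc
The match in Klf2 lay 118 to 109 bases before the start, and no match stood in the same window of Klf4 or of the other 6 members. Of 32851 promoter windows of the same length, 2.92% held such a match. GGGCGG, the GC box, stood on either strand in 7 of these 8 windows, all but that of Klf9, and in 32.7% of all windows. CACCC, the other sequence these factors bind, stood in 5 of the 8 windows (Klf2, Klf3, Klf7, Klf9 and Klf13) and in 52% of all windows. The Klf4 and Klf11 windows each held 4 places with GGGCGG, of which 2 overlapped, and the Klf3 window held 6. CpG dinucleotides numbered 32 in the Klf4 and Klf11 windows and 13 in the Klf7 window inside the gene, against a median of 6 over all windows.

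The libraries differed in how much they detected. Genes above 0 numbered 13108, 10954 and 10013 in glioma replicates 1, 2 and 3, against 7446, 11853 and 13072 in normal replicates 1, 2 and 3. Normal replicate 1 stood apart, with a lowest value above 0 of 7.43 on the log2 scale, where the other libraries had 0.22 to 5.22. Normal replicates 2 and 3 were the closest pair, with a mean absolute difference of 0.31 over the 5880 genes above 0 in all 6 libraries, where the other 14 pairs had 0.90 to 1.59. They share a date-like number in their names, as glioma replicates 2 and 3 do, and its meaning is not stated. Sequencing depth is unknown, because the deposited values keep no library totals. The difference of each member and the median of each list of pathway or family genes are therefore also given without normal replicate 1, where the median of all genes was -0.35.

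All 12 endothelial marker genes were above 0 in every library. Their differences, glioma minus normal, were positive for 3 and negative for 9, with a median of -0.37, where all genes had 0.05. Without normal replicate 1 the median was -0.50, where all genes had -0.35. Egfl7 lay wholly lower in glioma, as 6.37% of all genes did. Their summed level, as a log2 value, was 17.74 to 18.59 in glioma and 18.63 to 19.06 in normal libraries. Of 15 microglia and macrophage markers, 12, 2 and 12 were above 0 in glioma replicates 1, 2 and 3, against 5, 5 and 8 in normal replicates 1, 2 and 3; Adgre1 was at 0 in all 6. The summed level of that list, as a log2 value, ranged from 8.0 to 13.72 in glioma and from 7.0 to 11.26 in normal libraries, with glioma replicate 3 highest. Granulocyte markers were above 0 for 5 of 6 in glioma replicate 1 and for at most 1 in any other library. Of 10 T and NK cell markers, 1, 4 and 1 were above 0 in glioma replicates 1, 2 and 3, against 1, 2 and 2 in normal replicates 1, 2 and 3, and the summed level ranged from 5.60 to 8.76 in glioma and from 3.42 to 7.67 in normal libraries. Cd3e, Cd3g, Cd4, Cd8a, Nkg7 and Gzmb were at 0 in all 6 libraries. Lck, a kinase gene of T cells, had 8.63, 8.62 and 0 in glioma and was at 0 in the normal libraries, while Cd3d had 0, 3.82 and 0 in glioma and 7.67, 4.88 and 3.25 in normal libraries. Summed levels of neuron (12.81), fibroblast (11.85) and erythroid markers (18.65) were highest in glioma replicate 1. That of oligodendrocyte lineage markers was 7.91, 8.82 and 0 in glioma replicates 1, 2 and 3, against 7.91, 11.49 and 11.59 in normal replicates 1, 2 and 3. Those of astrocyte and of pericyte and smooth muscle markers overlapped between groups. In such sorted pools, fewer cells of a type and less RNA per cell cannot be told apart.

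No Kruppel-like factor passed the test over all genes. The limma test with Benjamini-Hochberg adjustment called 0 of 9 members and 0 of 11862 genes (0%) at an adjusted p of 0.05, and 509 genes (4.29%) but no member had an unadjusted p under 0.05. The 3 glioma libraries lay wholly below the 3 normal libraries for 1 member, Klf11, and wholly above for 0, where all genes gave 6.37% wholly below and 6.91% wholly above. Groups that did not overlap in either direction were thus seen for 1 of 9 members and for 13.3% of all genes, a share near the background. The difference, glioma minus normal, was negative for 7 members and positive for 2 (Klf3 and Klf10; with median-centred libraries also Klf7), and had a median of -0.33 over the members and 0.05 over all genes tested. These signs rested in part on glioma replicate 1: without it 6 members were positive and 3 negative (Klf2, Klf4 and Klf11), with a median of 0.09. As each library was left out, the members' median ranged from -0.89 to 0.09, and it was -0.65 without normal replicate 1.

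**Figure D1:**
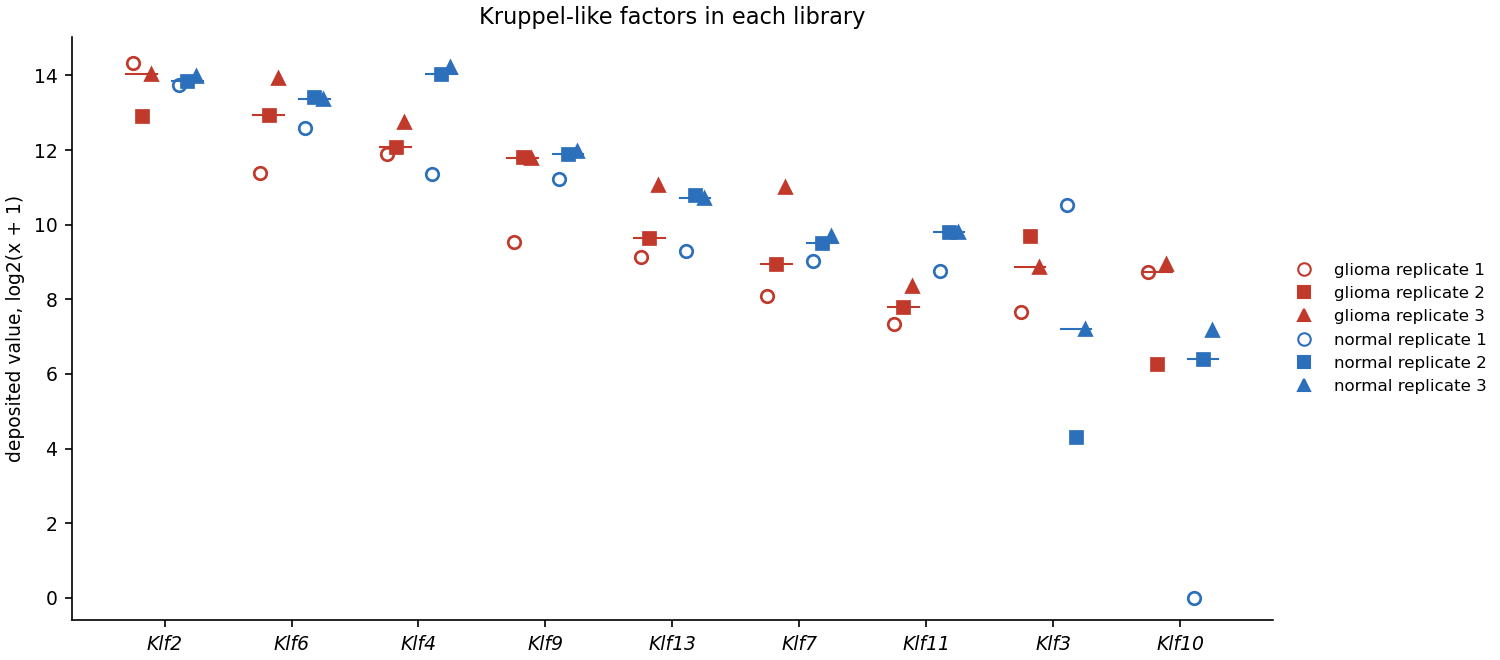
Deposited log2(x + 1) value (y axis) of each Kruppel-like factor in each library, with glioma in red left of normal in blue; the symbol shape gives the replicate number and the short lines are group medians. Klf11 is the member whose glioma values (7.34 to 8.36) all lie below its normal values (8.77 to 9.79), and Klf10 is at 0 in normal replicate 1.

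The members spanned a wide range of levels. Reads of this kit come from the 3′ end of transcripts, so counts of different genes need no correction for length. Whether the authors applied a length correction is not stated, which limits the order of genes by level. Klf2 had the highest mean log2 value over the 6 libraries (13.81), before Klf6 (12.94), Klf4 (12.72), Klf9 (11.37), Klf13 (10.11), Klf7 (9.38), Klf11 (8.64) and Klf3 (8.05), and Klf10 had the lowest. Neighbours in this order overlapped in their ranges over the libraries. Compared within a library, Klf9 was above Klf13 in 6 of 6 libraries, by 0.42 to 2.16, while Klf6 was below Klf2 in 5 of 6. The values appear quantile-normalized, so a value follows from its rank in the library, and ranks restate the values on another scale. Klf2 ranked between 77 and 334 of 24421 symbols in every library, and Klf11 between 3201 and 7446.

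**Figure D2:**
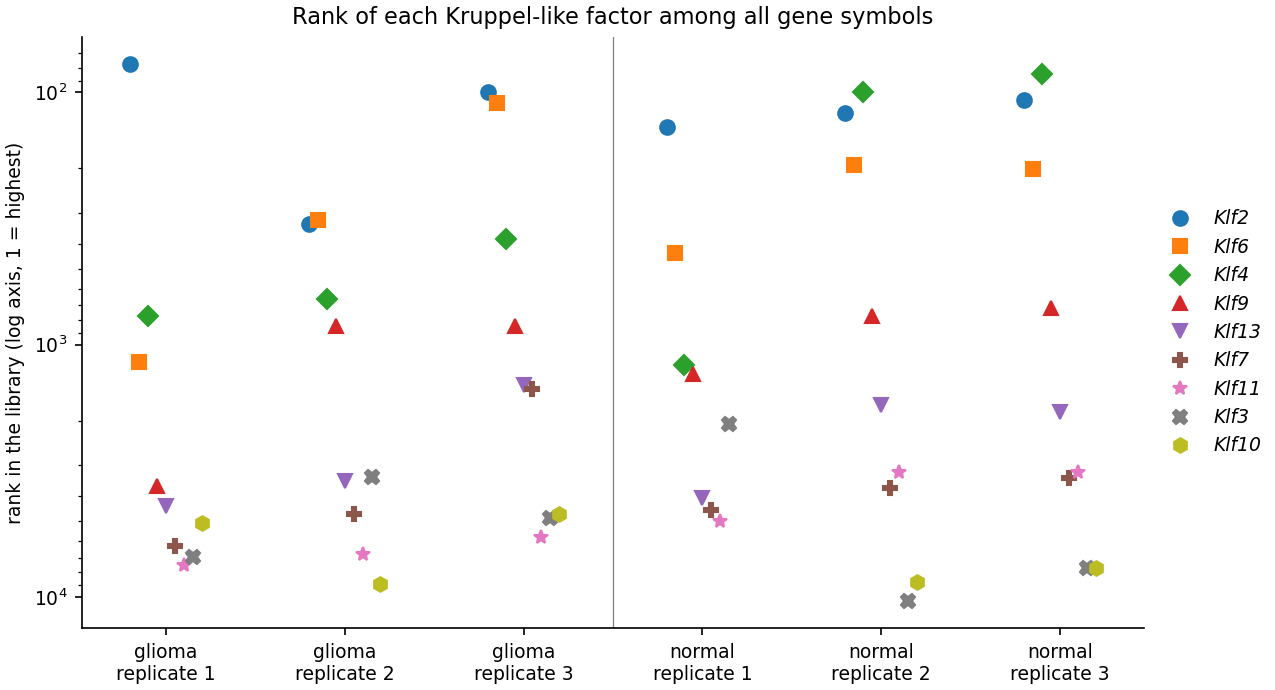
Rank of each Kruppel-like factor among all gene symbols in each library (y axis, log scale, 1 is the highest value), for the 3 glioma libraries at the left and the 3 normal libraries at the right. Klf2 stays between ranks 77 and 334, while Klf4 ranks 772, 659 and 380 in glioma replicates 1, 2 and 3 and 1202, 100 and 85 in normal replicates 1, 2 and 3; Klf10 in normal replicate 1, at 0, is not drawn.

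Klf2 (chromosome 8, 72319062 to 72321654), a flow-induced factor, spanned 1.42 log2 units over the 6 libraries, against 2.87 for Klf4. Among the glioma libraries alone Klf2 was more spread than Klf4 (SD 0.75 against 0.44). It stood at log2 values of 14.32, 12.90 and 14.04 in glioma replicates 1, 2 and 3, against 13.74, 13.85 and 13.98 in normal replicates 1, 2 and 3. The normal libraries, normal replicate 1 included, lay close together, and the glioma libraries lay on both sides of them. The difference was -0.10 (SE 0.51, limma adjusted p = 0.98), with a 95% interval from -1.26 to 1.06. Without normal replicate 1 it was -0.16 (SE 0.56).

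Klf4 (chromosome 4, 55527137 to 55532475), the other flow-induced factor, had 11.90, 12.09 and 12.74 in glioma replicates 1, 2 and 3, against 11.35, 14.04 and 14.22 in normal replicates 1, 2 and 3. Normal replicate 1 was the lowest library of all and the other normal libraries were the highest, so the groups overlapped through that library alone. The difference was -0.96 (SE 0.76, limma adjusted p = 0.875; 95% interval -2.70 to 0.78). Without normal replicate 1 it was -1.89 (SE 0.43, limma adjusted p = 0.393, in a range from 0.0289 to 0.996 over the 15 alternatives), the groups did not overlap, and the median difference of all genes was -0.35. In that comparison 20.7% of all genes had glioma wholly below normal, and 3 members did, namely Klf4, Klf9 and Klf11, while Klf3 lay wholly above as 14.7% of genes did; in either direction it was 4 of 9 members and 35.4% of genes. Within each library, Klf4 minus Klf2 was -2.42, -0.82 and -1.30 in glioma replicates 1, 2 and 3, against -2.39, 0.19 and 0.24 in normal replicates 1, 2 and 3. Klf4 was thus below Klf2 in all 3 glioma libraries and in normal replicate 1, and above Klf2 in normal replicates 2 and 3.

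Klf6 (chromosome 13, 5861489 to 5870393), the injury-induced activator, had 11.38, 12.94 and 13.93 in glioma replicates 1, 2 and 3, against 12.59, 13.41 and 13.38 in normal replicates 1, 2 and 3. The glioma libraries spanned both ends of the range. The difference was -0.38 (SE 0.67, limma adjusted p = 0.913) and was 0.31 without glioma replicate 1 and -0.65 without normal replicate 1. Klf7 (chromosome 1, 64029448 to 64122345), known for its role in axon growth in neurons, had 8.08, 8.95 and 11.02 in glioma replicates 1, 2 and 3, against 9.03, 9.5 and 9.69 in normal replicates 1, 2 and 3. Its difference of -0.06 (SE 0.85, limma adjusted p = 0.993) rested on glioma libraries at both extremes and was -0.89 without glioma replicate 3 and -0.24 without normal replicate 1. Glioma replicate 3 held the highest value of 4 members (Klf6, Klf7, Klf10 and Klf13). In that library the microglial gene C1qa was at 11.69, against 5.25 and 6.78 in glioma replicates 1 and 2. It had 9.79, 3.42 and 0.22 in normal replicates 1, 2 and 3. The summed level of the microglia and macrophage markers was also highest in glioma replicate 3, but not every marker was. Ptprc had 7.92, 7.2 and 0 in glioma replicates 1, 2 and 3, and Itgam had 6.75, 0 and 0. Cx3cr1 was at 9.08 in glioma replicate 3 and at 9.65 in normal replicate 1. The part of other cells in the values of the 4 members was not tested. Glioma replicate 1 held the lowest value of 5 members (Klf6, Klf7, Klf9, Klf11 and Klf13).

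Klf3 (chromosome 5, 64803521 to 64832901), the CtBP-binding repressor, was the most uneven member among those above 0 in all libraries. It had 7.66, 9.70 and 8.86 in glioma replicates 1, 2 and 3, against 10.54, 4.32 and 7.20 in normal replicates 1, 2 and 3. Normal replicate 1 was the highest library and normal replicates 2 and 3 the lowest. The difference was 1.38 (SE 1.60, limma adjusted p = 0.878). Without normal replicate 1 it was 2.98 (SE 1.27, limma adjusted p = 0.497, the alternatives giving 0.242 or more), and it was 0.27 once lower values were set to a floor of 7.43 in all libraries. Ctbp1, a partner gene, had 13.05, 12.74 and 13.38 in glioma and 12.25, 13.39 and 13.50 in normal libraries.

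Klf11 (chromosome 12, 24651371 to 24662782), of the SIN3-binding subgroup, had 7.34, 7.79 and 8.36 in glioma replicates 1, 2 and 3, against 8.77, 9.79 and 9.79 in normal replicates 1, 2 and 3. Every glioma library lay below every normal library, normal replicate 1 included. The difference was -1.62 (SE 0.81, limma adjusted p = 0.875; 95% interval -3.47 to 0.23), and it ranged from -1.98 to -1.38 over the 15 alternatives. Without normal replicate 1 it was -1.96 (SE 0.66, limma adjusted p = 0.444, in a range from 0.0601 to 0.996 over those alternatives). Its mean was 7.83 ± 0.51 in glioma and 9.45 ± 0.59 in normal libraries (SD, n = 3 each).

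Klf10 (chromosome 15, 38291464 to 38300711), described like Klf11 as an early gene of TGF-beta signalling, had 8.73, 6.26 and 8.95 in glioma replicates 1, 2 and 3, against 0, 6.41 and 7.18 in normal replicates 1, 2 and 3. Normal replicate 1, where it was listed at 0, sets the size of its difference of 3.45 (SE 2.43, limma adjusted p = 0.875), which was 1.19 (SE 1.20) without that library. Klf11 minus Klf10 within a library was -1.40, 1.52 and -0.59 in glioma replicates 1, 2 and 3, against 3.38 and 2.61 in normal replicates 2 and 3.

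Klf9 (chromosome 19, 23141226 to 23168129), the hormone-induced member, had 9.54, 11.80 and 11.79 in glioma replicates 1, 2 and 3, against 11.22, 11.90 and 11.98 in normal replicates 1, 2 and 3. Only glioma replicate 1 lay far from the rest. The difference was -0.66 (SE 0.68, limma adjusted p = 0.878) and 0.09 without that library; without normal replicate 1 it was -0.90. Klf13 (chromosome 7, 63886351 to 63938915), known as an activator of a chemokine gene in T cells, had 9.12, 9.64 and 11.07 in glioma replicates 1, 2 and 3, against 9.30, 10.80 and 10.72 in normal replicates 1, 2 and 3. The difference was -0.33 (SE 0.72, limma adjusted p = 0.936), and it came to -0.82 without normal replicate 1 and to 0.08 without glioma replicate 1. GENCODE vM21 places genes on the opposite strand within Klf3, Klf7 and Klf13; the use of strand in the authors' counting is not stated in the sources used. The only such gene in the files, E030018B13Rik within Klf13, was at 0 in all 6 libraries.

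**Figure D3:**
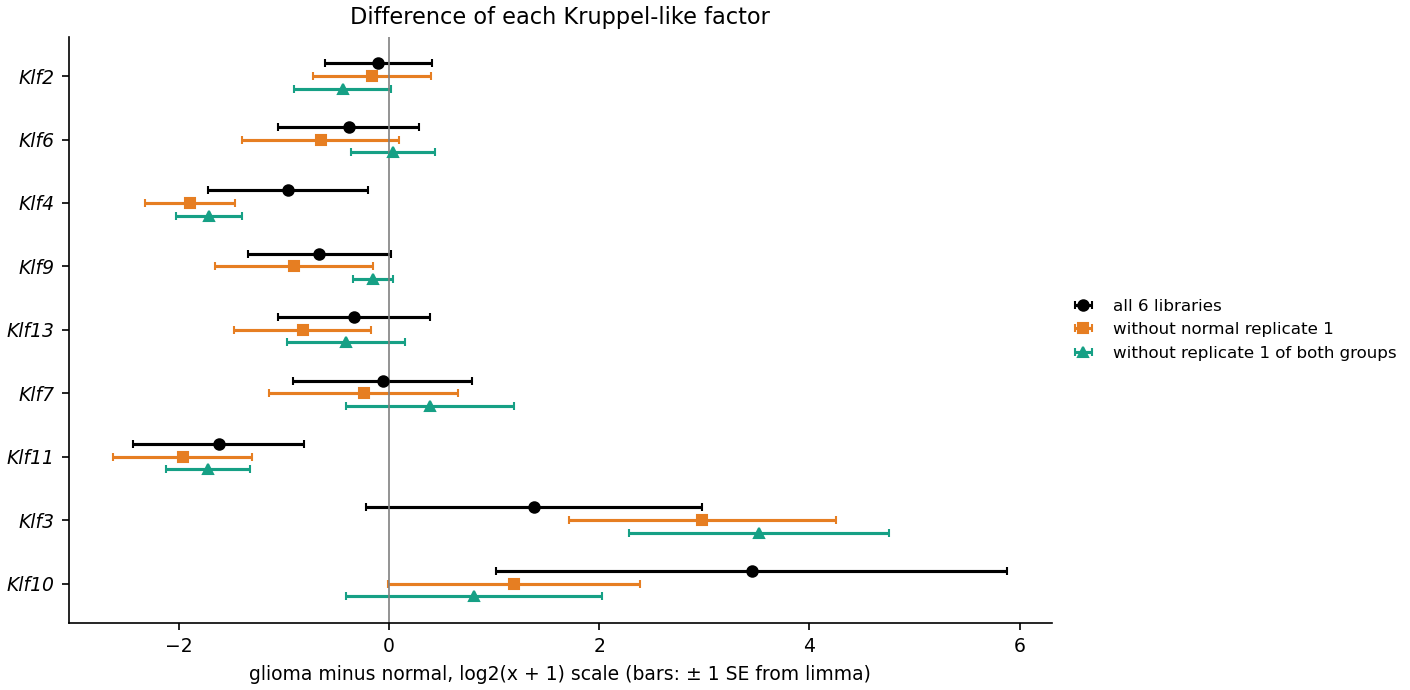
Difference, glioma minus normal, of each Kruppel-like factor in log2(x + 1) units (x axis, bars are ± 1 SE from limma), over all 6 libraries, without normal replicate 1, and without replicate 1 of both groups. Klf11 stays between -1.96 and -1.62 in the 3 fits, Klf4 is -0.96, -1.89 and -1.71, and Klf3 is 1.38, 2.98 and 3.52; in the smallest fit 4 of 9 members and 55.5% of genes have groups that do not overlap.

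Genes upstream of KLF2 and KLF4 gave no call. Of 17 genes of the MEK5-ERK5-MEF2 route, the cerebral cavernous malformation complex that restrains it, and flow sensing, 7 had a positive and 10 a negative difference, 0 passed the limma test, and the median was -0.24 where all genes had 0.05. Without normal replicate 1 the median was -0.68, where all genes had -0.35. In that comparison 2 genes lay wholly higher and 3 wholly lower in glioma, as 14.7% and 20.7% of all genes did. Mapk7, which encodes ERK5, had 8.71, 7.57 and 10.68 in glioma replicates 1, 2 and 3, against 11.31, 10.35 and 10.10 in normal replicates 1, 2 and 3. Heg1, the receptor that anchors the malformation complex, had 7.07, 5.82 and 0 in glioma and 8.57, 8.42 and 7.62 in normal libraries. It was the only gene of the list with groups that did not overlap, where 13.3% of all genes did not. Mef2c, a MEF2 factor of endothelium, had 13.69, 13.40 and 11.32 in glioma and 14.14, 12.89 and 12.78 in normal libraries.

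Known targets of KLF2 and KLF4 gave no call either. Of 10 induced targets, no gene separated the groups, where 13.3% of all genes did. Their differences were positive for 2 and negative for 8, 0 passed the limma test, and the median was -0.22. That median ranged from -0.75 to 0.59 as each library was left out: it was 0.59, with 6 positive and 4 negative differences, without glioma replicate 1, and -0.33 without normal replicate 1. Thbd, the anticoagulant receptor thrombomodulin, had 5.25, 10.78 and 10.41 in glioma replicates 1, 2 and 3, against 8.06, 10.83 and 10.83 in normal replicates 1, 2 and 3. Nos3, the endothelial nitric oxide synthase, had 8.11, 11.10 and 12.13 in glioma and 9.25, 11.59 and 11.45 in normal libraries. In both genes replicate 1 was the lowest library of its group. Of 9 repressed targets, 6 were tested, with 4 positive and 2 negative differences and a median of 0.07; 0 passed. Their median was 0.39 without normal replicate 1 and ranged from -0.79 to 1.31 as each library was left out. Angpt2, an antagonist of the Tie2 receptor, had 10.94, 11.67 and 12.08 in glioma and 13.15, 8.70 and 8.67 in normal libraries. Vcam1, a leukocyte adhesion molecule, had 9.48, 12.85 and 11.56 in glioma and 11.71, 10.96 and 11.21 in normal libraries. Sele, the adhesion molecule E-selectin, was above 0 in glioma replicates 2 and 3 alone, at 4.87 and 9.14.

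Klf2, Klf4 and Klf6 are often counted among the genes that respond within minutes to stimuli and to tissue dissociation, so the other genes of that kind are given beside them. Of 16 genes, 15 had a positive and 1 a negative difference, 0 passed the limma test, and the median was 0.58, ranging from 0.05 to 0.75 as each library was left out. Without normal replicate 1 the signs were 10 positive and 6 negative (median 0.32), and with library quality weights 6 positive and 10 negative (median -0.07). The list median was 10.86, 11.94 and 12.83 in glioma replicates 1, 2 and 3, against 10.79, 11.70 and 11.88 in normal replicates 1, 2 and 3, so replicate 1 was lowest in both groups. Fos had 10.25, 11.64 and 13.85 in glioma and 9.88, 11.72 and 11.81 in normal libraries. Jun had 12.81, 13.62 and 14.01 in glioma and 12.08, 13.45 and 13.82 in normal libraries. Egr2, an early zinc finger gene, had 7.87, 5.89 and 8.53 in glioma and 0, 5.38 and 3.58 in normal libraries. It was the only gene of the list with groups that did not overlap, where 13.3% of all genes did not. Normal replicate 1 held no value above 0 under 7.43, so its 0 does not place it below glioma replicate 2. The part of cell handling in the values of the Kruppel-like factors was not tested.

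Cofactors and signals of the other members were listed as well. Among 12 cofactors and ubiquitin ligases, 4 differences were positive and 8 negative (median -0.33, and -0.55 without normal replicate 1), 0 passed the limma test, and 1 gene, the acetyltransferase Kat2b, had all glioma libraries lower, at 9.12, 9.85 and 10.28 against 11.50, 10.67 and 10.45. Of 12 TGF-beta genes, 11 were tested, with 5 positive and 6 negative differences and 0 past the threshold. The median was -0.24, or -0.58 without normal replicate 1. The ligand gene Tgfb2 and the inhibitor gene Smad7 lay wholly lower in glioma. For comparison with the lists in this paragraph, 6.37% of all genes lay wholly lower and 6.91% wholly higher. Smad7 had 8.42, 8.22 and 8.56 in glioma and 8.96, 8.80 and 9.17 in normal libraries. Of 10 glucocorticoid and thyroid response genes, 9 were tested, with 4 positive and 5 negative differences, a median of -0.02 (-0.57 without normal replicate 1 and 0.42 without glioma replicate 1) and 0 past the threshold. Fkbp5, a glucocorticoid-induced chaperone gene, had 8.26, 8.60 and 10.59 in glioma and 7.72, 3.42 and 2.94 in normal libraries and did not overlap. Thra, a thyroid hormone receptor gene, had 7.69, 8.76 and 7.97 in glioma and 8.69, 10.22 and 9.95 in normal libraries.

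**Figure D4:**
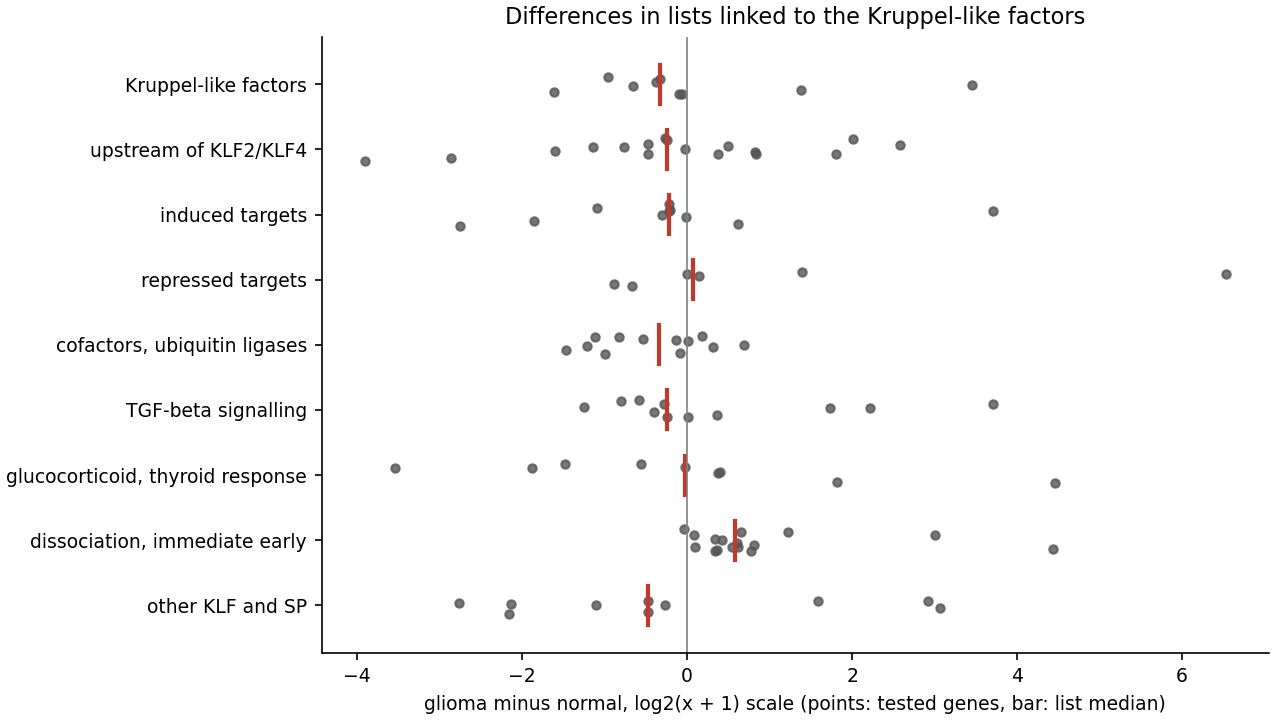
Difference, glioma minus normal, in log2(x + 1) units (x axis) of each tested gene in each list; points are genes and the red bar is the list's median. With all 6 libraries the immediate early list has a median of 0.58 and the Kruppel-like factors one of -0.33, with no gene of these lists past the limma threshold.

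The rest of the family held more values at 0 than the 9 members. The members were chosen with earlier results of these data known, so this contrast may follow from the choice. Of 17 other KLF and SP genes, Klf14, Klf17, Sp7 and Sp9 were at 0 in all 6 libraries, and 10 passed the filter, with 3 positive and 7 negative differences and 0 past the limma threshold. Their median was -0.47, and -0.79 without normal replicate 1. Sp3 and Sp1, broadly expressed relatives that bind GC boxes, were the highest, with Sp3 at 10.51, 10.47 and 11.11 in glioma replicates 1, 2 and 3, against 11.59, 11.06 and 10.84 in normal replicates 1, 2 and 3. Klf8 was the only one with groups that did not overlap, at 6.00, 5.89 and 7.04 in glioma and 0, 5.54 and 4.18 in normal libraries. Of all genes 13.3% did not overlap. Normal replicate 1 held no value above 0 under 7.43, so its 0 for Klf8 does not place it below the glioma libraries. Klf1, the erythroid factor, was above 0 in glioma replicate 1 alone, at 8.43. The erythroid gene Alas2 was at 12.47 there, against at most 8.89 elsewhere; the source of these transcripts was not tested. Sp2 had 7.37, 8.86 and 5.48 in glioma and 11.30, 8.46 and 8.36 in normal libraries. Klf5 had 6.75, 3.82 and 0 in glioma and 0, 0 and 1.81 in normal libraries. Klf15 had 1.42, 7.17 and 0 in glioma and 0, 3.42 and 0.42 in normal libraries. In these 3 genes the groups overlapped. Sp1 had 9.68, 10.38 and 10.08 in glioma and 8.62, 11.31 and 11.01 in normal libraries. Klf16 had 9.16, 6.31 and 7.83 in glioma and 8.26, 8.46 and 7.98 in normal libraries. Klf12, a repressor related to KLF3, had 8.58, 8.36 and 0 in glioma and 8.28, 8.62 and 8.31 in normal libraries. Sp4 and Sp6 were at 0 in glioma replicate 3 and in normal replicate 1, and Sp5 and Sp8 were above 0 in at most 2 libraries.

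**Figure D5:**
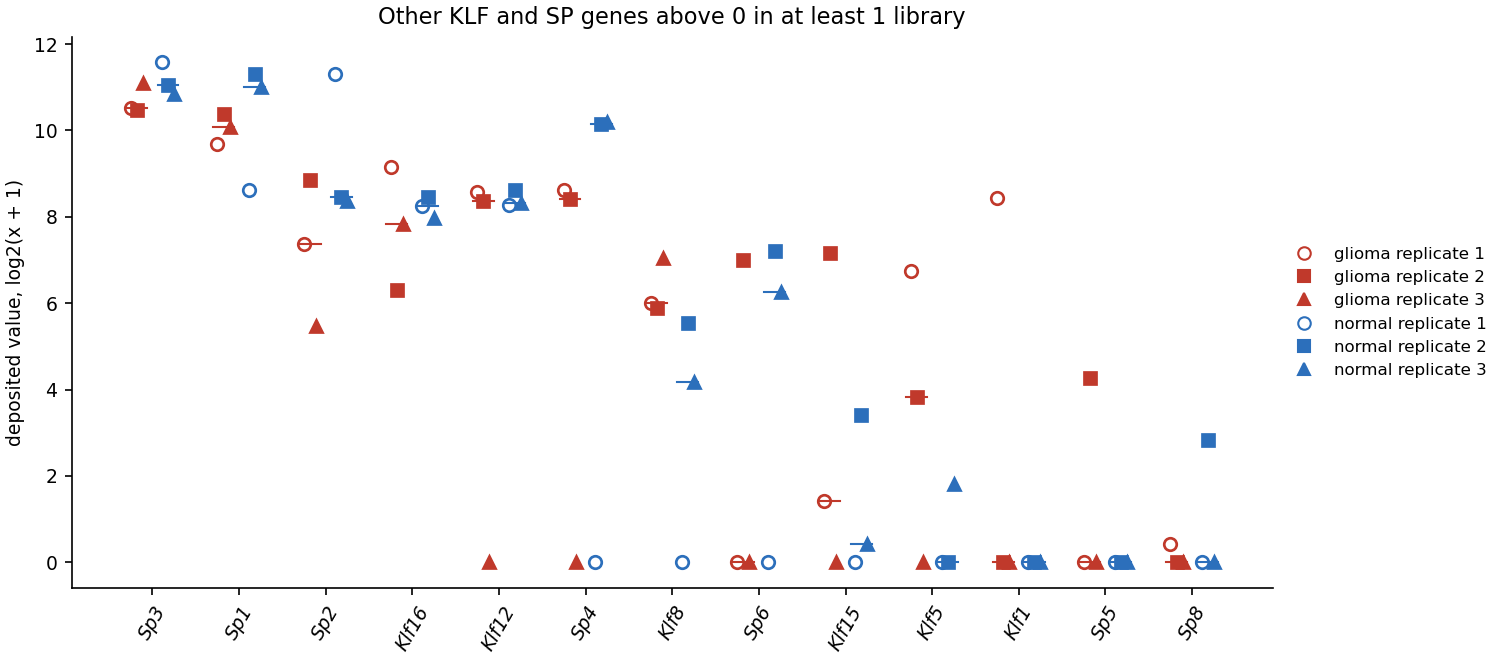
Deposited log2(x + 1) value (y axis) of the other KLF and SP genes above 0 in at least 1 library, with glioma in red left of normal in blue, symbol shape by replicate number and lines at the group medians. Sp3 and Sp1 lie highest, and Klf1 is above 0 in glioma replicate 1 alone, at 8.43.

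The pattern of Klf2 over the libraries was most closely matched, among 5879 other genes above 0 in all 6, by Mphosph8, Snx4 and Crlf3. The mean absolute difference of their deviations from their own means was 0.093, 0.120 and 0.132 log2 units over the 6 libraries. For Klf4 the closest were Ercc3, Pkd1 and Upf2, at 0.188, 0.210 and 0.220. Among the other members, Klf11 and Klf13 were the closest to Klf4, at 0.503 and 0.558 and in places 146 and 236 of all genes, while Klf2 came in place 1574 at 0.955.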

How the data were processed

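RNA was taken up in Trizol and used for Lexogen QuantSeq libraries, per the labels' protocols. The submitters' processing notes name Bowtie2, edgeR and mm10, with no role or version; how reads were counted, annotated and normalized is not stated in the sources used. From their form, the deposited log2 values are log2(x + 1) after quantile normalization by the authors: the highest was 20.85 in all 6 libraries. This removes the depth, and a 0 is reported only as listed at 0.

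Values were fitted in limma 3.58.1 (R 4.3.3) on group alone, with a mean trend. A gene was tested if 2 to the power of its value, minus 1, reached 1 in 3 or more libraries. Benjamini-Hochberg adjustment ran over all tested genes (threshold 0.05). The fit was tested on simulated data, and 15 alternatives were run. The members and lists were chosen with earlier results of these data known. Of 205 list symbols, 202 stood in the files, 2 under another symbol, and 1 was not matched. Named were all members and the rest of the family, genes with the smallest p in each list, and 8 anchors (Nos3, Thbd, Vcam1, Angpt2, Mef2c, Mapk7, Fos, Jun); genes named for groups that did not overlap, Sele, Ctbp1 and marker genes were chosen after their values were seen. Positions are from RefSeq GRCm38.p6, the assembly of mm10. Some genes that the rule names are not reported here.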

Additional observations from a re-analysis of the deposited data

How the results depend on the processing

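Klf4 and Klf11 kept a negative and Klf10 a positive difference under every alternative that gave a value, 15, 15 and 14 of them, with Klf4 from -2.0 to -0.45 and Klf10 from 0.15 to 4.78. For Klf11, whose groups did not overlap, leaving out or reweighting libraries could not change the sign. Klf7 turned to 0.04 with median-centred libraries, which moved the median of all genes to 0.13. As each library was left out, the difference ranged from -0.38 to 0.33 for Klf2, -0.13 to 2.98 for Klf3, -0.97 to 0.31 for Klf6, -0.89 to 0.58 for Klf7, -1.03 to 0.09 for Klf9 and -0.89 to 0.08 for Klf13, and 1 to 4 members had groups that did not overlap, where 15% to 35.4% of all genes did not. Without replicate 1 of both groups, 4 members did not overlap, where 55.5% of genes did not. In that fit Klf2 was -0.44, Klf6 0.04, Klf7 0.39 and Klf3 3.52. The libraries left in each group share a date-like number in their file names, whose meaning is not stated. No such number occurs in both groups, so any batch that it marks cannot be told apart from group. With no mean trend 15 genes passed and no member. With library quality weights 322 genes passed and 1 member, Klf4 (-2.0, limma adjusted p = 0.0289); that fit gave a weight of 17.2 to normal replicate 3 and 0.11 to normal replicate 1, and its weights did not fully converge. With the replicate block 0 genes passed (smallest limma adjusted p = 0.790). The numbers were not taken to pair libraries, because the titles do not say that they do. Deviations of same-numbered libraries correlated at 0.19, 0.15 and 0.06 over 5880 genes, and those of differently numbered libraries at -0.19 to 0.19. Glioma replicate 3 correlated best with normal replicate 2. These values do not settle whether libraries were paired. Klf10 has no value where genes above 0 in all 6 libraries were required. The unknown depth limits what a value of 0 means.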
